A study of Homo sapiens with 3 samples.

Results

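The calls described here are those beside the widest stretch without summits on 17 human autosomes, the stretch in which the centromere of such a chromosome is found. Centromeres are the sites where the kinetochore assembles and are built on long arrays of tandem alpha satellite repeats, flanked by further satellite families and by segmental duplications known as pericentromeric DNA. Much of this DNA is packed as constitutive heterochromatin, which is known for late replication, and in the hg19 assembly most satellite arrays are left as unsequenced blocks. Calls can be placed only where the assembly holds sequence.

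The cells were HCT116, an established human colorectal cancer line grown without treatment, and 3 replicates formed a single group with no contrast between conditions. Short nascent strand sequencing (SNS-seq) purifies short DNA strands that a 5′ RNA primer protects from λ-exonuclease, and so marks places where replication starts. Each replicate had a list of narrow summits from the peak caller MACS2 and a list of diffuse regions from EPIC2. The study describes the SNS-seq as repeated experiments, but nothing in the labels says that the replicates came from separate cultures, so the spread between them may be partly technical.

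Members were selected on the positions of the summits themselves. For each autosome except the acrocentric chromosomes 13, 14, 15, 21 and 22, the summits of the 3 replicates were pooled and sorted, and the widest distance between neighbours was taken as the gap. Summits and regions within 1 Mb outside either edge are called near, and those 5 to 10 Mb from an edge are called far. With a flank on each side of 17 gaps there were 34 flanks, 34 Mb of near windows and 170 Mb of far windows. In replicates 1, 2 and 3 the near windows held 1378, 530 and 953 MACS2 summits, of 218227, 63077 and 162176 in the whole lists. They held 700, 266 and 435 EPIC2 regions, of 124492, 44482 and 78820. Together the members were 2861 summits and 1401 regions, and the far windows held 26223 summits and 14130 regions. The gap edges are summits by construction, so the density of calls right at the edge is partly set by this choice and is given only as a description. The selection itself used positions only, but strong calls at some gap edges were known when it was made, so the scores near the edges are not independent of the choice.

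The gap was a distinct feature on every chromosome. It was 2.16 to 28 times as wide as the second-widest distance on the same chromosome, which ranged from 0.218 to 2.76 Mb. On 14 chromosomes it measured between 3.002 and 3.554 Mb. It was 21.05 Mb wide on chromosome 1, 19.24 Mb on chromosome 9 and 11.24 Mb on chromosome 16, which are the autosomes known for large heterochromatin blocks next to the centromere. No EPIC2 region lay wholly inside any gap in any replicate, and 30 regions over the 3 replicates spanned a gap edge. The edges were set by a summit of replicate 1 in 12 cases, of replicate 2 in 10 and of replicate 3 in 12, so no single library fixed them. An annotation of centromeres in hg19 was not used here, and the label rests on the size and the uniqueness of the gap.

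In hg19 coordinates the 3 wide gaps were chr1:121485213-142536235, chr9:47212550-66455389 and chr16:35147196-46386517. Among the gaps near 3 Mb, those of the larger chromosomes were chr2:92323579-95429175, chr3:90288123-93507993, chr4:49659704-52685248, chr5:46256213-49443364, chr6:58777236-61913407, chr7:57975052-61528673 and chr8:43831586-46856248. The remaining gaps were chr10:39153141-42355338, chr11:51591281-54730542, chr12:34756856-37948401, chr17:22261585-25263861, chr18:15407792-18511233, chr19:24582749-27732080 and chr20:26318253-29551458. A flank is named below by its chromosome and by p for the side of lower coordinates or q for the side of higher coordinates. The DNA sequence and the annotation of these places were not used here, because the reference at hand was of another build.

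Calls were sparser beside the gaps than farther out. The near windows held 40.5, 15.6 and 28 summits per Mb in replicates 1, 2 and 3, and the far windows held 78.2, 21.3 and 54.8. The ratio of near to far was 0.588 ± 0.126 (SD, n = 3) and was below 1 in all 3 replicates. EPIC2 regions gave a lower ratio, 0.513 ± 0.0501 (SD, n = 3), with 20.6, 7.82 and 12.8 regions per Mb near and 43.7, 13.8 and 25.6 far. The sequence covered by regions was 39.1, 21.5 and 50.1 kb per Mb near, against 91.2, 39.7 and 105 kb per Mb far. For both callers the distance of the ratio from 1 was larger than the spread between replicates. A 2-sided exact sign-flip test over 3 replicates cannot give a p below 0.25, so no p is given, and the 8 comparisons, each taken within a replicate, are reported as sizes with their spread.

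Stretches without any summit were more frequent near the gaps. Of 340 bins of 100 kb in the near windows, 21.8% had no summit in any replicate, against 4.12% of 1700 bins in the far windows. Counted over the bins with a summit in any replicate, the near density was 51.8, 19.9 and 35.8 summits per Mb and the far density 81.5, 22.2 and 57.1. The ratio on this basis, chosen after the values were seen, was 0.720 ± 0.154 (SD, n = 3). Leaving out a larger part of the near than of the far bins raises the ratio by itself. Whether calls could have been placed in the empty bins was not tested.

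The deficit did not hold on every flank. Of 34 flanks, 21 had fewer near than far summits per Mb in all 3 replicates and 5 had more in all 3, namely 4q, 10q, 16q, 18q and 20q. On 18q the near megabase held 148, 32 and 115 summits against 47.4, 14.2 and 38.6 per Mb far, and 96, 20 and 90 EPIC2 regions. On 16q it held 102, 38 and 84 summits against 68.8, 19 and 44.2 per Mb far. On 20q near and far were almost level, with 112 against 107 in replicate 1, 32 against 31.4 in replicate 2 and 70 against 68.6 in replicate 3. On 29 flanks of replicate 1 and 21 of replicate 2 the near density was the lower one, so exceptions were more frequent in replicate 2. The median distance between neighbouring summits, pooled over flanks, was 7889, 21340 and 9723 bases near and 7252, 26066 and 10065 bases far. In this pool flanks with many summits weigh most, so it says little about the sparse flanks.

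**Figure D1:**
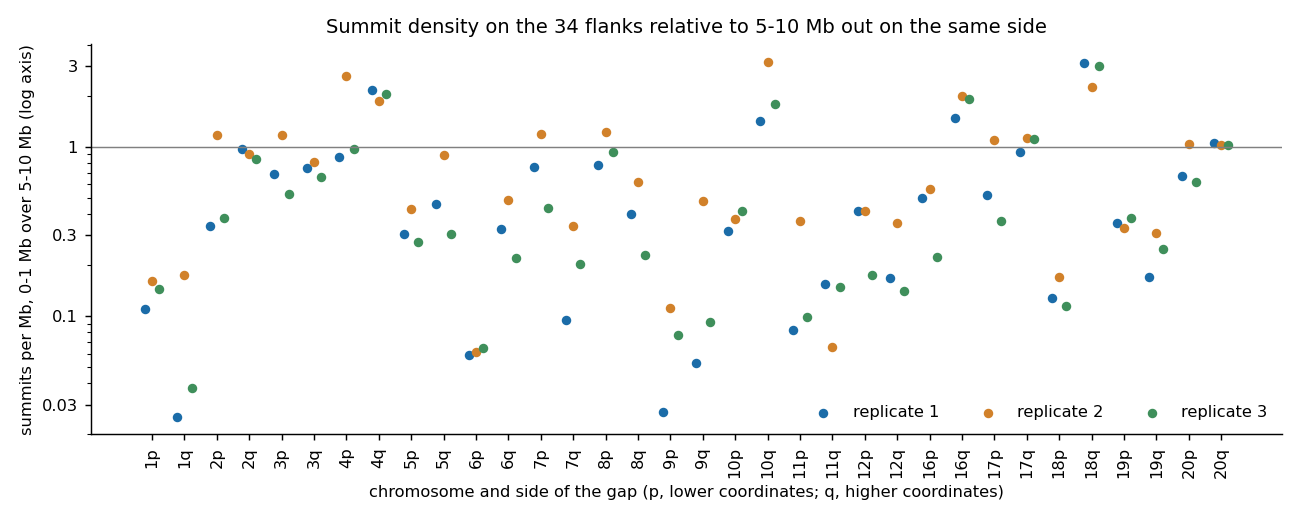
Summits per Mb within 1 Mb of the gap divided by summits per Mb 5 to 10 Mb out on the same side, on a log axis, for each of 34 flanks and each replicate (points). On 21 flanks all 3 points lie below 1 and on 5 flanks, 4q, 10q, 16q, 18q and 20q, all 3 lie above 1.

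The 3 flanks with the fewest summits were 9p, 6p and 1q. On 9p the whole megabase held 1, 1 and 2 summits in replicates 1, 2 and 3, and 3 of these 4 lay within 51 bases of the edge, at 47212550, 47212499 and 47212503. On 6p there were 3, 1 and 3 summits, and each replicate had one between 58777228 and 58777236 with a score of 309, 307 and 602. The other 4 summits of that flank had scores between 2.43 and 11.1. On 1q there were 2, 4 and 2 summits, which lay at 0 to 2.25 kb or at 258 to 260 kb from the edge and nowhere else. Each of these flanks thus held a position called in every library and few other calls. On 9p the scores were low, 10.4, 4.48 and 14.3 at the shared position, so such a place was not always a strong one.

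The typical score of a near summit was close to that of a far summit, while the highest scores were concentrated near the gaps. The MACS2 score is −log10 of the q-value. For replicates 1, 2 and 3 the median near score was 4.73, 4.25 and 3.98, and the median far score 4.73, 3.33 and 3.92. As a percentile among all summits of the replicate on the 17 chromosomes, the near median exceeded the far median by 0, 11.9 and 2.43 points. The mean difference of 4.76 ± 6.26 points (SD, n = 3) was smaller than the spread between replicates and rested on replicate 2, without which it was 1.22 points. By the EPIC2 score of regions, an alternative added later, the mean difference in median percentile was -0.336 points, and the replicates did not share a direction.

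The upper tail differed in each replicate. The 3 replicates had highest near scores of 1305, 2272 and 3497, against highest far scores of 60.3, 118 and 36.0 in a window 5 times as long. The 99th percentile of near scores was 47.7, 182 and 108, against 24.7, 36.8 and 13.4 far. A score above 100 was reached by 5, 10 and 11 near summits and by 0, 1 and 0 far summits. Such scores also occurred outside both windows, where they were not counted. Examples were 222 on 17q in replicate 1, 185 on 19p in replicate 2 and 150 on 2p in replicate 3. In replicates 1 and 3 the near and far scores were alike up to the median and parted above it, while in replicate 2 the near scores were already higher at the median.

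**Figure D2:**
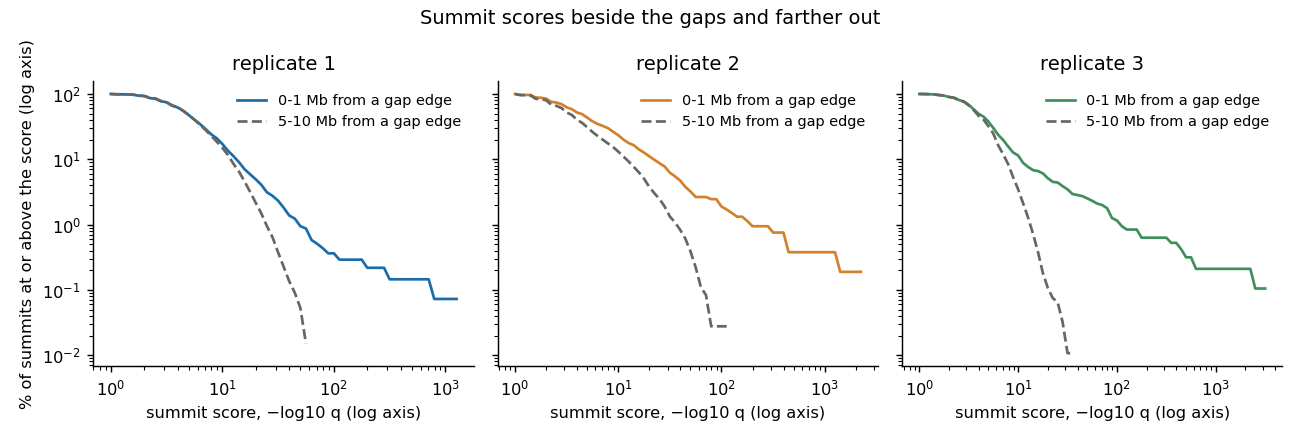
Percentage of summits at or above each score (−log10 q, both axes log) for summits 0 to 1 Mb (solid) and 5 to 10 Mb (dashed) from a gap edge, 1 panel per replicate. In replicates 1 and 3 the curves run together at low scores and separate toward high scores, in replicate 2 they separate earlier, and the near curve reaches 1305, 2272 and 3497 where the far curve ends at 60.3, 118 and 36.0.

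The top 1% of summits by score in each replicate was used to count this tail, and by construction it holds 1% of the summits of the 17 chromosomes. Near the gaps 39 summits of replicate 1, 26 of replicate 2 and 66 of replicate 3 were in it, which is 2.83%, 4.91% and 6.93% of near summits. In the far windows the share was 0.700%, 0.912% and 0.784%. The near share exceeded the far share by 4.09 ± 2.01 percentage points (SD, n = 3), or 4.04, 5.38 and 8.84 times. This was the case in all 3 replicates, and on 9 of 17 chromosomes in every replicate, while 2 chromosomes had a lower near share in every replicate. The size of the excess depended on how close to the gap the window was: it was 7.57 points within 0.5 Mb and 1.62 points within 2 Mb. The EPIC2 score gave an excess in the same direction, with 1.71%, 4.14% and 3.22% of near regions in the top 1% of their replicate against 0.484%, 0.854% and 0.322% of far regions.

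Near summits were frequent at the very top of the ranking. Of the 10 highest summits on the 17 chromosomes, 5 in replicate 1, 8 in replicate 2 and 9 in replicate 3 were near, although near summits made up 0.734%, 0.973% and 0.674% of the summits. No far summit was among the 10 highest in any replicate. Of the 100 highest, 12, 14 and 42 were near. Summits of the 10 highest that lay elsewhere were on 3p, 7q, 17q and 19q in replicate 1, on 8p and 19p in replicate 2 and on 2p at 2.44 Mb from the edge in replicate 3. The concentration near gaps was thus largest in replicate 3 and smallest in replicate 1.

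Density, score and sharing varied with the distance from the edge inside the near megabase. In the first 10 kb from the edge there were 41, 49 and 46 summits. Without the summits that set the edges there were 29, 39 and 34, or 85.3, 115 and 100 per Mb. Calls of the other replicates at the same places stayed in, so this density too is partly set by the choice of edges. From 10 to 100 kb the density was 24.2, 22.9 and 18.6 per Mb, and from 0.1 to 0.5 Mb it was 31.1, 10 and 20.2 per Mb. It then increased outward to 49.4, 16.2 and 33.8 per Mb at 0.5 to 1 Mb and 64.7, 18.1 and 47.3 per Mb at 1 to 2 Mb. In replicates 1 and 3 the classes between 10 kb and 0.5 Mb were the sparsest, whereas in replicate 2 the class from 10 to 100 kb was denser than each class beyond it and the class from 0.1 to 0.5 Mb was the sparsest. The 3 replicates were close to each other in number within 100 kb of the edge, although replicate 1 had over 3 times as many summits as replicate 2 in the whole list.

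Scores fell off over the same distance. The share of summits in the top 1% was 22.0%, 16.3% and 41.3% in the first 10 kb and 9.46%, 11.4% and 31.6% from 10 to 100 kb. It was 2.36%, 2.94% and 3.64% from 0.1 to 0.5 Mb and 1.55%, 2.182% and 3.30% from 0.5 to 1 Mb. From 1 to 2 Mb it was 1.09%, 0.649% and 0.498%, against 0.700%, 0.912% and 0.784% far, and the replicates no longer shared a direction. Sharing was highest at the edge too, where 56.1%, 44.9% and 47.8% of summits in the first 10 kb and 28.4%, 30.0% and 36.8% from 10 to 100 kb had a partner in both other replicates. The median score percentile in the first 10 kb was 74.4, 70.9 and 93.1. Within 100 kb lay 16, 16 and 37 of the near top 1% summits. Leaving out the first 100 kb, an alternative added later, lowered the excess to 1.76 points, and it kept its direction in all 3 replicates.

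**Figure D3:**
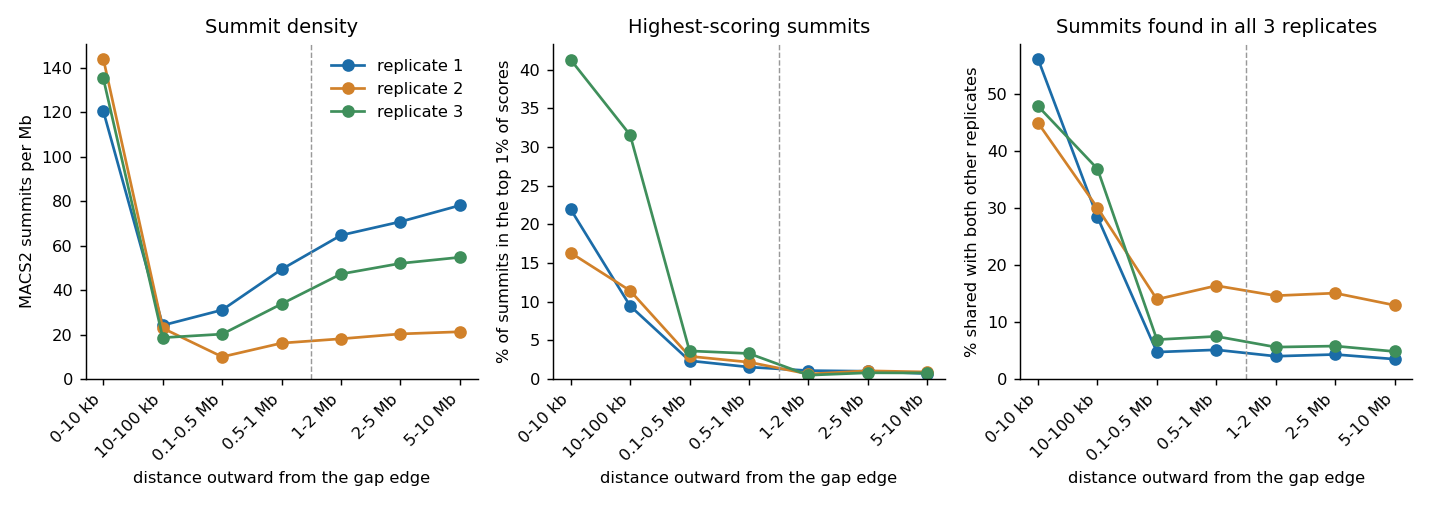
Summits per Mb (left), percentage of summits in the top 1% of scores (middle) and percentage with a summit of both other replicates within 500 bases (right) in 7 distance classes outward from the gap edge, 1 line per replicate. The dashed line marks 1 Mb. Density is highest in the first 10 kb, which holds the edge summits that define the gap, and increases outward from 0.1 Mb, and replicate 2 has a further high value at 10 to 100 kb. Both percentages are highest within 100 kb of the edge.

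The values just inside and just outside the 1 Mb limit are given here as a description. From 0.9 to 1.0 Mb there were 174, 56 and 122 summits and 89, 29 and 62 regions. From 1.0 to 1.1 Mb there were 191, 63 and 123 summits and 120, 36 and 43 regions. The median score was 4.94, 3.23 and 3.95 just inside and 5.41, 4.83 and 4.18 just outside, so it was higher outside in each replicate, most in replicate 2.

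Replicates shared near positions at least as often as far positions, despite the lower density near the gaps. A summit of another replicate lay within 500 bases of 37.9%, 61.7% and 41.1% of near summits in replicates 1, 2 and 3, against 35.0%, 60.0% and 35.8% of far summits. Over all summits of the 17 chromosomes the shares were 37.7%, 61.5% and 36.4%, so in replicates 1 and 2 the near share was at the level of the whole. The mean difference between near and far was 3.30 ± 1.85 percentage points (SD, n = 3), positive in every replicate. By chromosome, the near share was higher in every replicate on 8 of 17 and lower in every replicate on 4. In replicate 2 it was higher on 8 chromosomes and lower on 9. Leaving out the summits within 100 kb of the edge lowered it to 1.09 points. Without replicate 1 the mean difference was 9.97 points, but sharing was then counted between replicates 2 and 3 only.

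Positions found in all 3 libraries stood out more. A summit of both other replicates lay within 500 bases of 7.76%, 20.2% and 11.02% of near summits, against 3.49%, 12.9% and 4.83% of far summits. Over all summits of the 17 chromosomes it was 4.39%, 15% and 5.7%, so the near share was above the whole and the far share below it. The near share exceeded the far share by 5.90 ± 1.51 points (SD, n = 3) and was 2.02 ± 0.401 times as large (SD, n = 3). Outside the first 100 kb the shares were closer to the whole, with 4.73%, 13.97% and 6.91% from 0.1 to 0.5 Mb and 5.12%, 16.4% and 7.48% from 0.5 to 1 Mb. The pair of replicates 2 and 3 differed most between windows: replicate 3 shared 16.1% of its near and 7.03% of its far summits with replicate 2. Replicate 1 shared 25.1% of its near and 23.6% of its far summits with replicate 3. Replicate 2 shared fewer near than far summits with replicate 1, 52.8% against 54.8%. Shared near summits also had higher scores, with median percentiles of 63.3, 70.9 and 67.2 against 59.2, 57.5 and 53.5 for shared far summits. Strong near summits were nearly all shared: 39 of 39, 23 of 26 and 60 of 66 top 1% summits near the gaps had a partner in another replicate. Far from the gaps it was 83 of 93, 23 of 33 and 43 of 73. The share over all top 1% summits was not counted, and strong shared summits also lay outside both windows, such as 41382248 on 17q. For summits not shared with any replicate the near medians were 42.0, 42.3 and 44.0 and the far medians 43.9, 37.7 and 45.1, which showed no common direction.

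A match between libraries within 20 bases was found for a minority of summits, more often near than far. A summit of another replicate lay within 20 bases of 9.36%, 22.6% and 8.81% of near summits and of 5.46%, 14.8% and 3.22% of far summits, a difference of 5.77 ± 1.96 points (SD, n = 3). Over all summits of the 17 chromosomes it was 5.98%, 15.4% and 3.31%, near the far level. To count places rather than summits, the summits of all replicates were chained into sites where neighbours lay within 500 bases. There were 2181 near sites, of which 107 (4.91%) held all 3 replicates, and 20848 far sites, of which 487 (2.34%) did. In 23 of the 107 near sites all summits lay within 20 bases, or 21.5%, against 4 of the 487 far sites, or 0.821%. Sites outside both windows were not counted. The 107 sites were uneven over the flanks: 4p had 18, 10q 15, 16q 11 and 2p 11, while 10 flanks had none.

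**Figure D4:**
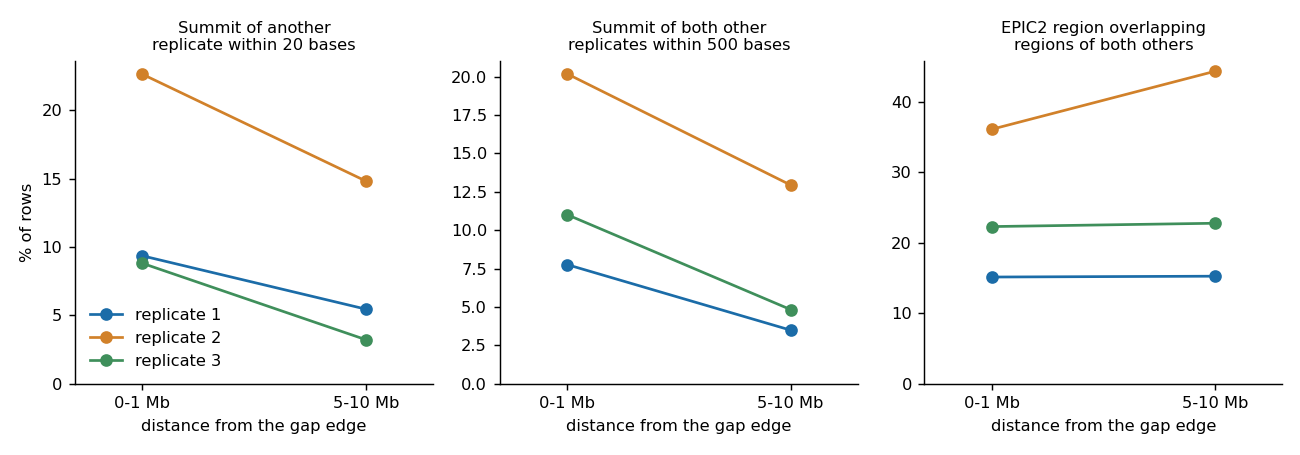
Percentage of rows shared between replicates near (0 to 1 Mb) and far (5 to 10 Mb) from the gaps, 1 line per replicate: summits with a summit of another replicate within 20 bases (left), summits with a summit of both others within 500 bases (middle), EPIC2 regions that overlap regions of both others (right). Both summit measures are higher near than far in all 3 replicates, and the region measure is not.

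When any overlap counted, EPIC2 regions did not show this difference. A region overlapped one of another replicate in 58.3%, 81.2% and 66.0% of near cases and in 58.5%, 79.5% and 69.7% of far cases. Over all regions of the 17 chromosomes the shares were 62.1%, 82.2% and 70.8%. The mean difference of -0.743 ± 2.73 points (SD, n = 3) was within the spread between replicates and changed sign with the settings. With a reciprocal overlap of 50% as the requirement it was 4.2 points and positive in every replicate. Regions of all 3 libraries made up 15.1%, 36.1% and 22.3% of near regions and 15.3%, 44.3% and 22.8% of far regions, both below the 19.2%, 49.2% and 26.5% over all regions of the 17 chromosomes. Without chromosomes 1, 6, 7, 10 and 19 the difference for any overlap was 5.08 points, also positive in every replicate. The direction for regions thus depended on the overlap required and on the chromosomes included.

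Widths were almost the same near and far. The median width of near regions was 1600, 2600 and 3200 bases in replicates 1, 2 and 3, and that of far regions 1600, 2800 and 3400 bases. EPIC2 works in steps of 200 bases, so replicates 2 and 3 differed from far by a single step and replicate 1 by none. The ratio of medians was 0.957 ± 0.0381 (SD, n = 3). Taken within each chromosome it was below 1 on 11 chromosomes in each replicate, though these were not the same chromosomes throughout, since 6 of the 16 chromosomes with regions in all replicates were below 1 in all 3. The widest near regions measured 14200, 12800 and 19600 bases and the widest far regions 30000, 11800 and 33600 bases.

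The callers met about equally often near and far. At least 1 summit of the same replicate lay in 81.6%, 66.9% and 70.6% of near regions and in 81.4%, 58.9% and 69.7% of far regions. Over all regions of the 17 chromosomes the shares were 81.5%, 56.1% and 71.8%. The difference of 3.05 ± 4.35 points (SD, n = 3) came mainly from replicate 2, without which it was 0.545 points. Among the top 1% summits the callers met less often in the near than in the far windows. Of the top 1% summits, 84.6%, 96.2% and 74.2% of the near ones lay in an EPIC2 region of their replicate, against 100%, 100% and 94.5% of the far ones. In counts, 33 of 39, 25 of 26 and 49 of 66 near summits lay in a region. For far summits it was 93 of 93, 33 of 33 and 69 of 73. The difference in replicate 2 was therefore slight, and the share over all top 1% summits of the 17 chromosomes was not counted.

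At 16 near sites the summit was in the top 1% of scores in all 3 replicates, and at no far site. Sites outside both windows were not counted, so such sites may also occur elsewhere. They lay on 10 flanks, 7 of them within 10 kb of the edge and 11 within 100 kb. The summits of the 3 libraries spanned a median of 13 bases at these sites and at most 191 bases. Replicate 3 had a higher score than replicate 1 at all 16, replicate 2 a higher score than replicate 1 at 14, and replicate 3 a higher score than replicate 2 at 12. Over all 107 near sites with 3 replicates this order was less regular, with replicate 3 above replicate 1 at 65 and replicate 2 above replicate 1 at 52. Scores were not scaled between libraries and read depth is unknown, so whether this order belongs to the sites was not tested. In 12 of the 16 sites an EPIC2 region was present in all 3 replicates.

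**Figure D5:**
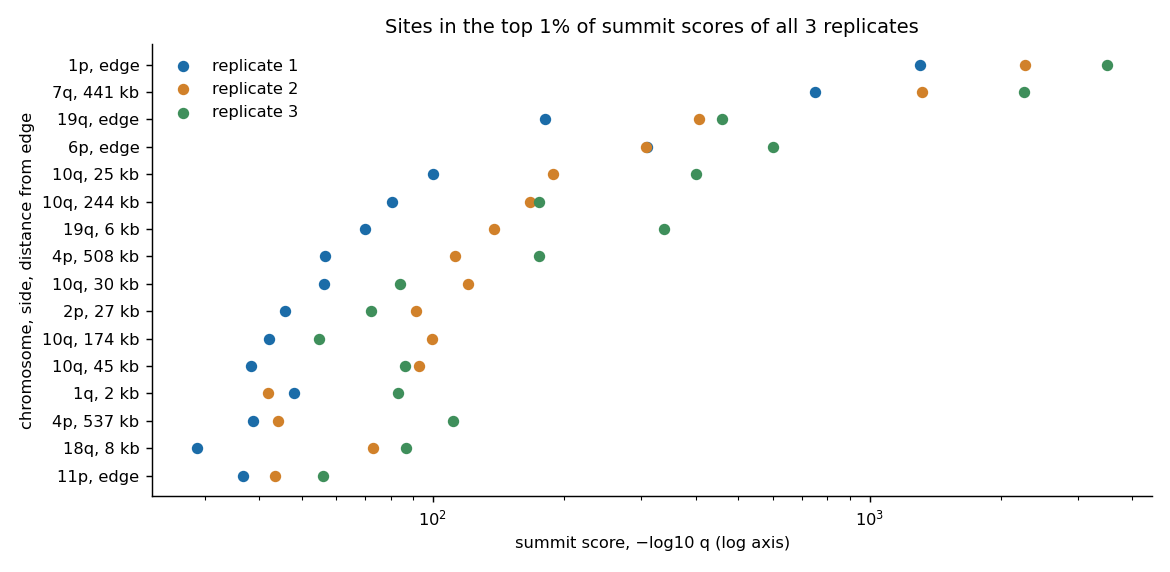
Highest summit score (−log10 q, log axis) in each replicate (points) at the 16 near sites that are in the top 1% of scores of all 3 replicates, labelled by chromosome, side and distance from the gap edge. Scores run from 28.9 to 3497, and the point of replicate 3 lies to the right of that of replicate 1 at every site. Scores are not scaled between replicates.

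The strongest site lay at the edge of the gap on 1p, where the 3 summits fell between 121485160 and 121485213. The EPIC2 regions there were only 1200, 1400 and 1600 bases wide in replicates 1, 2 and 3. The next site was 441 kb inside the 7q flank, and all 3 libraries placed its summit on the same base, 61969354, with scores of 749, 1316 and 2256. The remaining summits of 7q were few, with 10, 7 and 10 in the megabase in all against 106, 20.6 and 49.6 per Mb far. These 2 sites had the highest and second-highest summit of every replicate. Strong here refers to the score alone, and whether replication starts more often at these sites was not tested. Use of a control, filtering by mapping quality, masking and the handling of reads from repeats are all unknown. Agreement between libraries on a position therefore does not show that it is a start of replication.

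The edge of 19q held a pair of strong sites. At 27732080 to 27732188 the scores were 181, 407 and 459, and 6.41 kb farther out, at 27738489 to 27738491, they were 69.9, 138 and 339. In replicate 3 a single EPIC2 region of 8400 bases took in both, while in replicate 1 each had a region of 2400 bases. The edge of 6p, described above, had the highest EPIC2 scores of all near regions, 14050, 14121 and 15076, each 3400 bases wide. The rank by EPIC2 score was therefore not the rank by MACS2 score, since 1p, with the highest summits, had EPIC2 scores of 6000, 6006 and 6039.

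The 10q flank held 5 of the 16 sites, more than any other. Its strongest lay 24.9 kb from the edge, at 42380264 to 42380268, with scores of 100.2, 189 and 401. Replicate 1 had no EPIC2 region at that site, replicate 2 had one of 3000 bases and replicate 3 one of 12800 bases. A second site, 244 kb from the edge at 42599675 to 42599795, had scores of 80.7, 167 and 175. The 3 others lay 29.8, 45.02 and 174 kb from the edge. In contrast to 1p, 6p and 7q, the flank was also dense, with 53, 38 and 46 summits against 37.2, 12.0 and 25.8 per Mb far.

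On 4p the strongest site lay 508 kb from the edge, at 49151779 to 49151789, with scores of 56.7, 112 and 175. Neither replicate 1 nor replicate 2 had an EPIC2 region over it, and that of replicate 3 was 1800 bases wide. The 4p flank had 4, 2 and 12 summits in the top 1%, so replicate 3 placed more of its strongest calls there than the others. The 2p flank had 8, 3 and 10, but its strongest summit differed between libraries, with scores of 73.2, 91.7 and 74.96 at positions up to 480718 bases apart. On 17q the strongest summits of replicates 1 and 2 were 3 bases apart, at 25289584 and 25289581, with scores of 43.2 and 51.6, while that of replicate 3 lay 1.26 kb from the edge with a score of 21.6.

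Not every high score was shared. The third-highest summit of replicate 2 lay on 17p at 22020726, 241 kb from the edge, with a score of 426, and neither other replicate had a summit within 500 bases. The highest near scores on 17p were 47.3 in replicate 1 and 9.63 in replicate 3, both at other positions. Of 34 flanks, 11 had a top 1% summit in all 3 replicates and 9 had none in any. The highest summit of the flank was at the same place in all 3, within 500 bases, on 7 flanks.

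Scores at near sites were ranked more alike by the libraries than at far sites. Over the 107 near sites with all 3 replicates, the Spearman correlation of the highest score was 0.646 for replicates 1 and 2, 0.442 for 1 and 3 and 0.705 for 2 and 3. Over the 487 far sites it was 0.363, 0.00228 and -0.113. These correlations run across sites, several of which share a flank, and are given as a description without a p. The near sites include the strong ones described above, which had no counterpart among the far sites. How much those strong sites add to the near correlations was not tested. The median score at near sites was 10.3, 8.92 and 11.45, and at far sites 9.08, 3.66 and 4.37, so replicates 2 and 3 had higher scores at near sites by a wider margin than replicate 1.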

How the data were processed

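SNS-seq lists of 3 untreated HCT116 replicates were analysed. Per the methods and the submitters' processing notes, the authors mapped each library with Bowtie2 2.3.4.2 (hg19), took out duplicates with Picard 2.18.17 and made calls per replicate with MACS2 2.1.0.20151222 at q = 0.1 and EPIC2 at an FDR of 0.1. A control library, a mapping-quality filter and a list of masked regions are not given in the sources used here, and read depth is unknown. In the deposited MACS2 files each row is a summit of 1 base with a score taken as −log10 of the q-value. The deposited EPIC2 lists hold a score of unstated kind, used only as a rank within a replicate, and other columns hold positions.

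Gaps, windows and percentiles were computed with Python 3.11.15, numpy 2.4.6 and pandas 2.3.3, and checked on simulated lists. A region was placed by its base nearest to the edge. Percentiles were ranked within a replicate over 17 chromosomes, and tied scores share a rank. Named flanks were the 8 with the highest mean percentile of the top summit and the 3 with the fewest summits, and named sites the 8 highest in all 3 replicates. The sites and flanks 16q, 17p, 18q and 20q, the remaining strong sites of 10q, the 20-base match and the sharing of top summits were named after their values were seen. The members, windows and comparisons were chosen with earlier results of these data known, including the strong calls at some gap edges.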

Additional observations from a re-analysis of the deposited data

How the results depend on the processing

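Read depth and the use of a control are not known from the files. Near and far were compared within each replicate throughout. Of 18 alternatives for the excess of top 1% summits 15 left its size within the spread between replicates. So did 13 of 15 for the summit density ratio and 13 of 15 for the difference in summit sharing, and none reversed these results. For caller agreement 13 of 14 did so and none reversed it, but its spread of 4.35 points exceeded its size of 3.05. That count therefore does not show a stable difference. With a near window of 0.5 Mb it was 0.165 points, and 1 of 3 replicates kept the direction. The cause of the changes below was not tested.

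With a near window of 0.5 Mb, 1723 rows were members, the top 1% excess was 7.57 points and the EPIC2 density ratio 0.420. With 2 Mb, 11017 rows were members, the excess was 1.62 points, the summit and EPIC2 density ratios were 0.718 and 0.661, and the EPIC2 sharing difference turned positive at 1.58 points. With a far window of 10 to 15 Mb, the EPIC2 density ratio was 0.416, the width ratio 0.902 and the EPIC2 sharing difference -7.27 points. As medians over chromosomes, the EPIC2 density ratio was 0.444, the width ratio 0.867 and the caller agreement difference 10.8 points. Without chromosomes 1, 6, 7, 10 and 19, the EPIC2 density ratio was 0.694 and the EPIC2 sharing difference turned positive at 5.08 points. Among the upper 50% of EPIC2 scores, the width ratio was 0.914 and the sharing difference -5.38 points, and with a reciprocal overlap of 50% the latter was positive at 4.2 points. Leaving out each replicate in turn, the summit sharing difference ranged from 1.85 (without replicate 3) to 9.97 points (without replicate 1). The EPIC2 sharing difference ranged from -5.57 (without replicate 2) to 0.837 points (without replicate 3). Sharing was in these cases counted between the remaining replicates only.

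The alternatives that follow were chosen after seeing the data. Without the first 100 kb, the top 1% excess was 1.76 points and the summit sharing difference 1.09 points. With the EPIC2 score, the difference in median percentile reversed to -0.336 points. Without chromosome 18 the EPIC2 density ratio was 0.456, and per Mb of bins with a summit the summit density ratio was 0.720.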
